A study of Mus musculus with 9 samples.

Results

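Of 24487 rows in a table of gene expression from mouse midbrain, 9 matched the gene symbols of the set, and 8 were described here: the rows named Pink1, Park7, Fbxo7, Uchl1, Pla2g6, Htra2, Chchd2 and Rhot1. They are the mouse counterparts of human genes linked to Parkinson's disease whose proteins work in mitochondria or in the ubiquitin system. Each was chosen by its symbol, which matched 1 row, and that rule uses no measured value. RNA sequencing had been done on 4 libraries of dopaminergic neurons from the midbrain and on 5 libraries of whole midbrain, all from mice of the C57BL/6 background. The labels give no age, sex, allele or treatment, and they leave unstated the isolation method, any transgene or driver, and whether the libraries of a group came from separate animals. The title of the table has the word bacTRAP, which names a method that pulls down tagged ribosomes of a chosen cell type with their RNA. A capture step used in 1 group only and the cell type cannot be told apart in this design. The p-values measure the spread between libraries, which may be technical.

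Midbrain dopaminergic neurons are the cells whose loss gives the movement signs of Parkinson's disease, and their long branched axons place a heavy demand on mitochondria. On a damaged mitochondrion the kinase PINK1 gathers at the outer membrane and phosphorylates ubiquitin. Outer membrane proteins become coated with ubiquitin, among them Miro1 (Rhot1), which ties mitochondria to motor proteins, and the marked organelle is taken up by autophagy. The other genes encode DJ-1 (Park7), a protein that responds to oxidation; FBXO7, an adaptor of a ubiquitin ligase complex; UCHL1, a ubiquitin hydrolase abundant in neurons; PLA2G6, a phospholipase; and HTRA2 and CHCHD2, which reside in the space between the mitochondrial membranes.

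Levels are in FPKM, which counts fragments per kilobase of transcript and per mapped total, and no read counts were used here. A rough depth was taken from the smallest values of single-exon receptor genes, each read as 1 read. It was 47.2 to 62.6 megareads in dopaminergic libraries and 16.4 to 56.7 in whole midbrain libraries, so that 1 read per kilobase was worth 0.0160 to 0.0610 FPKM. The lowest value of any of the 8 genes was 2.12 FPKM. All 10 markers of dopaminergic neurons were higher in the dopaminergic libraries, with Th, the rate-limiting enzyme of dopamine synthesis, at 1491 to 1722 FPKM against 43.7 to 51.5 in whole midbrain. Every tested marker of astrocytes, oligodendrocytes, their precursors, microglia, and endothelial and mural cells was lower (8, 8, 5, 8 and 8 genes), as were 5 of 6 GABAergic (not Vip), 3 of 4 glutamatergic (Neurod6 was higher), 3 of 4 serotonergic, noradrenergic and cholinergic (not Chat) and 3 of 4 red blood cell markers (not Hbb-bs). None of these markers was at 0 in all dopaminergic libraries. Whole midbrain library 2 stood apart from its group. Its log2 values correlated across genes at 0.903 to 0.906 with those of the other whole midbrain libraries, which correlated at 0.947 to 0.962 with each other. Genes are not independent replicates. Marker sums of library 2 also differed: the 6 GABAergic markers were at 826 FPKM there and at 380 to 401 FPKM in the other 4 whole midbrain libraries, the 4 red blood cell markers at 535 against 114 to 206 FPKM, and the 8 astrocyte markers at 347 against 474 to 485 FPKM. Library 2 was also the highest of its group for markers of oligodendrocytes, their precursors, microglia, endothelial and mural cells, and glutamatergic neurons. The same held for serotonergic, noradrenergic and cholinergic markers, while its dopaminergic sum of 249 FPKM lay within the range of the others. The part of these markers in the values of library 2 was not tested.

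The question of the comparison is how the abundance of these transcripts in dopaminergic neurons differs from that in the tissue around them. Of the 8 genes, 6 were higher in the dopaminergic libraries (Uchl1, Chchd2, Park7, Htra2, Pla2g6 and Rhot1), 1 was lower (Fbxo7), and Pink1 was not called. The call was a Benjamini-Hochberg adjusted p under 0.05 in limma on log2(FPKM + 1), a scale that understates the change of low genes. By the same rule 38.3 percent of the 13106 genes tested were called higher and 36.0 percent lower, so a call by itself is common in this comparison. How many of all genes tested had groups without overlap was not counted here. A lack of overlap is therefore not read as a trait of a gene. The median log2 fold change of all genes was 0.04. In bulk RNA a lower value cannot be split into fewer cells that use a gene and less RNA per cell. The 2 groups also had unequal totals, 506466 to 521822 FPKM in dopaminergic libraries and 309275 to 409130 in whole midbrain libraries. The 409130 was that of library 2, and the other whole midbrain totals were 309275 to 313252. When each library was rescaled to the same total (TPM), the median of all genes moved to -0.60, and 3 members were higher (Uchl1, Chchd2 and Park7) and 2 lower (Fbxo7 and Pink1). Without whole midbrain library 2, 7 members were higher and 1 lower. Below, ± gives the SD over 4 dopaminergic or 5 whole midbrain libraries for levels and ratios, and the SE for log2 fold changes.

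**Figure D1:**
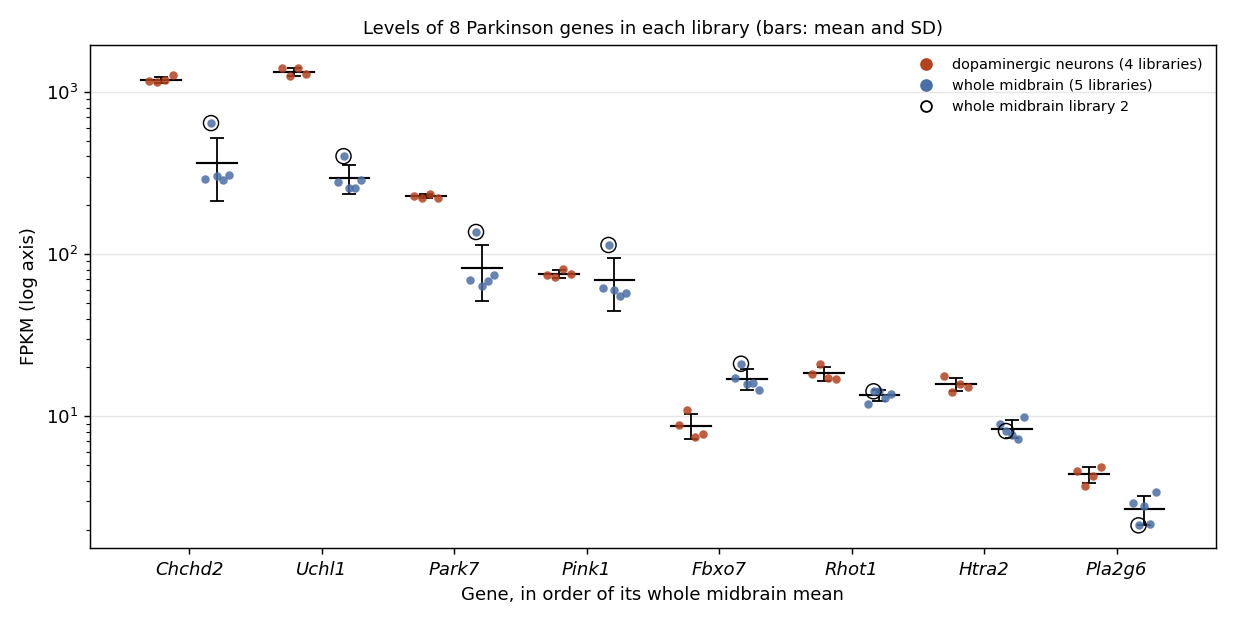
FPKM of the 8 genes (log axis) in 4 dopaminergic libraries, drawn left of 5 whole midbrain libraries, with points for libraries, a line for the mean and bars for the SD. Circles mark whole midbrain library 2, which lies above the rest of its group for Chchd2, Uchl1, Park7, Pink1 and Fbxo7. The groups overlap for Pink1 alone, and the share of all genes tested without overlap was not counted.

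Pink1, the kinase at the head of the pathway (chromosome 4, 138313410 to 138326296, minus strand, mm10), was at 74.0, 71.7, 81.2 and 75.1 FPKM in dopaminergic libraries 1 to 4 and at 61.9, 114, 60.0, 55.1 and 57.3 FPKM in whole midbrain libraries 1 to 5. The dopaminergic libraries lay close together, above 4 of the whole midbrain libraries and below library 2. The log2 fold change was 0.17 ± 0.19 (SE; limma adjusted p = 0.436). Without whole midbrain library 2 it was 0.36 ± 0.05 (limma adjusted p = 9.23e-05), a call of higher. Under quantile normalization and as TPM it was called lower, at -0.41 and -0.53 (limma adjusted p = 0.0202 and 0.00281). The call of Pink1 depended on 1 library, and its direction on the scaling.

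Among the genes of the ubiquitin system, Uchl1 had the largest change of the 8 genes on the deposited scale, although as TPM its log2 fold change of 1.49 was smaller in size than the -1.60 of Fbxo7. Uchl1 (chromosome 5, 66676121 to 66687234, plus strand) was at 1398, 1251, 1403 and 1284 FPKM in dopaminergic libraries and at 279, 401, 257, 254 and 288 FPKM in whole midbrain libraries. Every dopaminergic library was more than 3-fold above the highest whole midbrain library, again library 2. The means were 1334 ± 78.1 FPKM in dopaminergic neurons and 296 ± 60.7 FPKM in whole midbrain, 4.51-fold higher, with a log2 fold change of 2.19 ± 0.14 (limma adjusted p = 3.72e-07). That change was above those of 98.5 percent of all genes tested, and the level in dopaminergic neurons was above those of 99.7 percent. Under quantile normalization, which forces all libraries to 1 distribution, the log2 fold change of Uchl1 was 1.08. Uchl1os, an RNA of the opposite strand known in mouse to raise translation of Uchl1, shares 295 exonic bases with it and was at 0.118 ± 0.0495 FPKM in dopaminergic neurons and 0.142 ± 0.0879 FPKM in whole midbrain, below the minimum for testing.

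Fbxo7 (chromosome 10, 86021929 to 86048328, plus strand), the F-box adaptor that brings substrates to an SCF ubiquitin ligase and that binds the proteasome regulator PI31, was at 8.84, 10.9, 7.45 and 7.82 FPKM in dopaminergic libraries, against 17.2, 21.1, 15.7, 16.0 and 14.6 FPKM in whole midbrain libraries. Library 2 was the highest of its kind in both groups, and the groups did not overlap. The means of 8.76 ± 1.57 FPKM in dopaminergic neurons and 16.9 ± 2.50 FPKM in whole midbrain gave a 1.93-fold lower level and a log2 fold change of -0.88 ± 0.13 (limma adjusted p = 0.000118). Over 22 alternatives it ran between -1.60 as TPM and -0.67 with a pseudocount of 5, with each value called lower. Its exons share 314 bases with A230060F14Rik on the opposite strand, and the libraries are not stated to keep strand. The 8 astrocyte markers summed to 22.9 to 30.4 FPKM in dopaminergic libraries and 347 (library 2) to 485 FPKM in whole midbrain libraries, and the 8 oligodendrocyte markers to 165 to 280 FPKM in dopaminergic libraries and 2807 to 3316 FPKM in whole midbrain libraries. The part of glial RNA in the lower values of Fbxo7 was not tested.

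Park7, which encodes DJ-1 (chromosome 4, 150897133 to 150909921, minus strand), was at 228, 222, 235 and 222 FPKM in dopaminergic libraries and at 68.8, 137, 63.7, 68.0 and 74.3 FPKM in whole midbrain libraries. The dopaminergic values varied by 2.74 percent of their mean (coefficient of variation), the smallest spread of the 8 genes there, and each was above the highest whole midbrain library. The mean was 227 ± 6.22 FPKM in dopaminergic neurons against 82.3 ± 30.7 FPKM in whole midbrain, 2.76-fold higher, and 3.30-fold higher without whole midbrain library 2. The log2 fold change was 1.51 ± 0.20 (limma adjusted p = 5.87e-05) and ran between 0.75 under quantile normalization and 1.71 without library 2.

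The promoters of Pink1, Park7 and Fbxo7 are shown because they share letters while their genes did not move alike, and that of Uchl1 because its gene had the largest change on the deposited scale. RefSeq windows (GRCm38.p6, the assembly of mm10) were at hand for 6 of the 8 genes, with none used for Htra2 and Chchd2. In the 250 bases before the start site a search was made on both strands for GCGCANGCG, the core of the site of nuclear respiratory factor 1, which regulates many nuclear genes of mitochondria. AAAGGTCA, the site bound by Nurr1 of dopaminergic neurons, and TGACGTCA, the cyclic AMP response element, were also searched. The first was present once in Pink1, from 9 bases upstream to the start, once in Park7, from 128 bases upstream, and at 125 and 61 bases upstream in Fbxo7, and was not in the windows of Uchl1, Pla2g6 and Rhot1. The others were in none of the 6 windows, so no matches of different motifs overlapped. Of all 32851 windows of that length 5.16, 1.34 and 1.55 percent hold the 3 motifs. Capitals mark the matches, and all sequences run 5′ to 3′ towards the start site. Pink1 lies at chr4:138326297-138326546 on the minus strand, Park7 at chr4:150909922-150910171 on the minus strand, Fbxo7 at chr10:86021679-86021928 on the plus strand and Uchl1 at chr5:66675871-66676120 on the plus strand.
Pink1: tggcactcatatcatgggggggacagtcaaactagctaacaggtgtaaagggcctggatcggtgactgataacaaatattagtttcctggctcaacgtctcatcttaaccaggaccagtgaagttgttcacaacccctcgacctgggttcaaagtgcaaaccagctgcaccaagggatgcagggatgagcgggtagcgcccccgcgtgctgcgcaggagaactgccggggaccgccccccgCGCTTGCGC
Park7: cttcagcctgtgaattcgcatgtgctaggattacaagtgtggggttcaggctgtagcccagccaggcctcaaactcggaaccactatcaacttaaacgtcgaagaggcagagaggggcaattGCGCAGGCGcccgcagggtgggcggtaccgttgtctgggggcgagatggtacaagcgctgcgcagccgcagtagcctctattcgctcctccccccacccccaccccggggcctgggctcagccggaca
Fbxo7: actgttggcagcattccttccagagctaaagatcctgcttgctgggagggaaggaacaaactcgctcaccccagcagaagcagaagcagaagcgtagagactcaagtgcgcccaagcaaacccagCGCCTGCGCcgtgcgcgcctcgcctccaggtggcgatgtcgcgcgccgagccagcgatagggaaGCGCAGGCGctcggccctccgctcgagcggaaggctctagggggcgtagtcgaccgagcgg
Uchl1: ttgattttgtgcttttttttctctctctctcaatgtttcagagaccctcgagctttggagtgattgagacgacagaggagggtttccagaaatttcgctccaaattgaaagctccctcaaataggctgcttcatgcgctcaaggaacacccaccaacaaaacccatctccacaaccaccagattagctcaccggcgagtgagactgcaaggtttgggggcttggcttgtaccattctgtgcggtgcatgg
A match describes the letters and not a bound site. Among the 3 genes with a match, Park7 rose, Fbxo7 fell and Pink1 was not called.

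The genes of the intermembrane space were both higher. Chchd2, a small protein with paired cysteine motifs that binds cytochrome c oxidase and the cristae organizer MICOS (chromosome 5, 129881161 to 129887470, minus strand), was at 1174, 1144, 1185 and 1262 FPKM in dopaminergic libraries and at 291, 642, 304, 286 and 308 FPKM in whole midbrain libraries. The other 4 whole midbrain libraries lay within 286 to 308 FPKM, and library 2 was 2.16-fold above their mean. The means over all libraries were 1191 ± 50.2 FPKM in dopaminergic neurons and 366 ± 154 FPKM in whole midbrain, with a log2 fold change of 1.78 ± 0.23 (limma adjusted p = 4.75e-05). Without library 2 the log2 fold change was 1.999 ± 0.05, and under quantile normalization it was 0.64. GENCODE lists a pseudogene, Chchd2-ps, with which reads could be shared, so the split between the copies is uncertain.

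Htra2, a serine protease that guards protein quality and is released when cells die (chromosome 6, 83051267 to 83054571, minus strand), was at 17.6, 14.1, 15.9 and 15.2 FPKM in dopaminergic libraries, against 9.01, 8.10, 7.64, 7.25 and 9.96 FPKM in whole midbrain libraries. The groups did not overlap, and the level was 1.87-fold higher in dopaminergic neurons, with a log2 fold change of 0.83 ± 0.10 (limma adjusted p = 3.05e-05). As TPM the value was 0.20 and was not called (limma adjusted p = 0.216). Of its 2946 exonic bases in GENCODE, 753 are shared with Aup1 and 535 with Loxl3, both on the opposite strand. Loxl3 was at 0.0588 ± 0.00942 FPKM in dopaminergic neurons and 0.954 ± 0.375 FPKM in whole midbrain. Aup1, a ubiquitin-binding protein of lipid droplets and the endoplasmic reticulum, was at 21.2 ± 3.44 FPKM in dopaminergic neurons and 14.0 ± 0.9997 FPKM in whole midbrain, a log2 fold change of 0.55 (limma adjusted p = 0.00108), and -0.11 as TPM. Reads of the shared bases could belong to either gene. In the deposited table, however, the spans of Aup1 and Loxl3 lie 81 and 0 bases from that of Htra2. The annotation behind the FPKM is not named, so how far the overlap bears on these values is uncertain.

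Rhot1, the outer membrane GTPase Miro1 (chromosome 11, 80209055 to 80267907, plus strand), was at 18.3, 20.9, 17.2 and 17.0 FPKM in dopaminergic libraries and at 11.95, 14.2, 14.4, 13.0 and 13.7 FPKM in whole midbrain libraries. All dopaminergic values were higher, by a small margin: the means were 18.4 ± 1.77 FPKM in dopaminergic neurons and 13.5 ± 0.997 FPKM in whole midbrain, and the log2 fold change was 0.42 ± 0.08 (limma adjusted p = 0.00112). The sign turned as TPM, at -0.25 with no call (limma adjusted p = 0.0679). Pla2g6, a calcium-independent phospholipase A2 of membrane repair (chromosome 15, 79286228 to 79328371, minus strand), was at 4.60, 3.74, 4.30 and 4.87 FPKM in dopaminergic libraries and at 2.92, 2.12, 2.78, 2.17 and 3.42 FPKM in whole midbrain libraries. The groups did not overlap, although the gap between dopaminergic library 2 and whole midbrain library 5 was small. The log2 fold change of Pla2g6 was 0.55 ± 0.12 (limma adjusted p = 0.00202), and as TPM it was 0.015 with no call (limma adjusted p = 0.948).

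**Figure D2:**
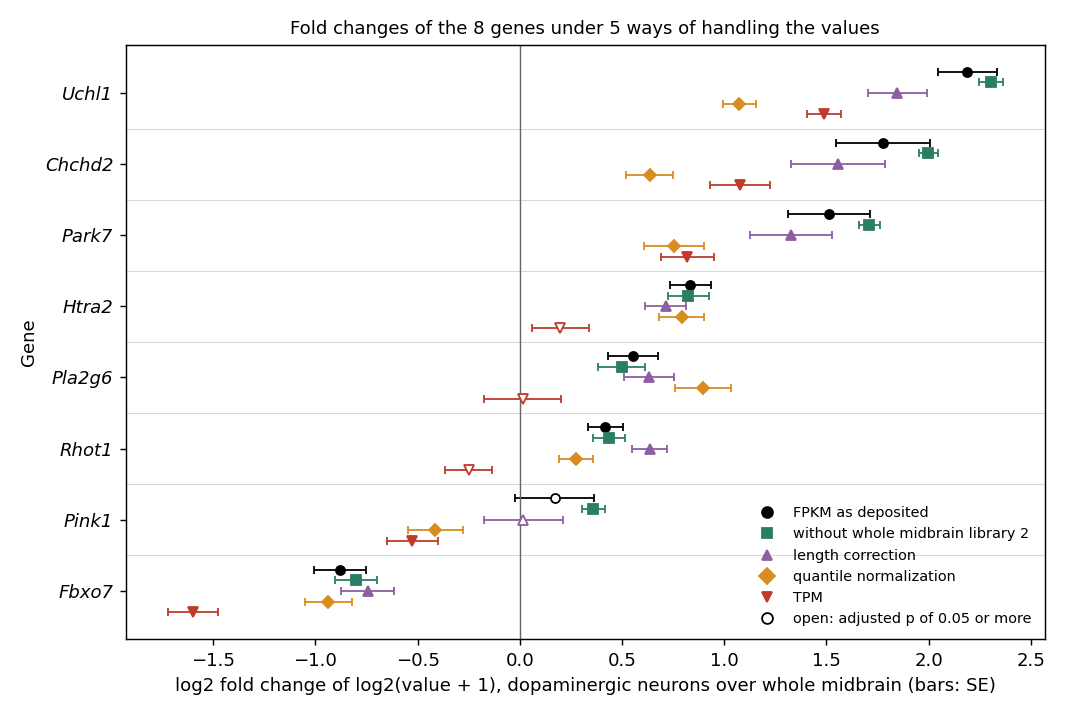
Log2 fold changes (dopaminergic neurons over whole midbrain, x axis) of the 8 genes with SE under 5 ways of handling the values; open symbols did not pass an adjusted p of 0.05 (limma). Uchl1, Chchd2 and Park7 lie right of 0 and Fbxo7 left of 0 in all 5, while Pink1 changes side under quantile normalization and as TPM, and Rhot1 as TPM.

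FPKM is a value per length, so levels could be set in order within a group. In dopaminergic neurons the order of means was Uchl1, Chchd2, Park7, Pink1, Rhot1, Htra2, Fbxo7 and Pla2g6, from 1334 to 4.38 FPKM. The ranges of Uchl1 and Chchd2 overlapped there, as did those of Rhot1 and Htra2. In whole midbrain the order was Chchd2, Uchl1, Park7, Pink1, Fbxo7, Rhot1, Htra2 and Pla2g6, from 366 to 2.68 FPKM, and the ranges of Chchd2 and Uchl1 and of Park7 and Pink1 overlapped. Compared within each library, however, all these pairs stood in the order of the means of that group in every library. Fbxo7 was below Rhot1 and Htra2 in the dopaminergic libraries and above both in the whole midbrain libraries, with no overlap in either group. Of the summed FPKM of the 8 genes, Uchl1 and Chchd2 made up 46.4 ± 1.60 and 41.5 ± 1.68 percent in dopaminergic neurons and 35.3 ± 3.12 and 42.0 ± 3.47 percent in whole midbrain. The share of Pink1 was 2.63 ± 0.0922 percent in dopaminergic neurons and 8.08 ± 0.425 percent in whole midbrain, and that of Fbxo7 was 0.306 ± 0.0655 percent in dopaminergic neurons and 2.05 ± 0.313 percent in whole midbrain. A share also falls when other genes rise: the sum was 2737 to 2949 FPKM in dopaminergic and 701 to 1339 FPKM in whole midbrain libraries. Pink1 itself averaged 75.5 FPKM in dopaminergic neurons and 69.6 FPKM in whole midbrain.

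Apart from the pseudocount, the ratio of 2 genes within a library does not depend on how libraries are scaled against each other. For 7 pairs of a member with a relative or partner, the log2 ratio of (FPKM + 1) was compared between the groups with a two-sided exact permutation test, where the smallest p that 4 against 5 libraries allow is 0.0159, with adjustment over the 7 pairs, of which 6 are given. Uchl1 exceeded Uchl3, a related hydrolase, by 22.7 ± 1.78-fold in dopaminergic neurons and 13.1 ± 2.12-fold in whole midbrain, a difference in log2 ratio of 0.84 (exact permutation adjusted p = 0.0278). The ratio of Chchd2 to its paralog Chchd10, a gene of motor neuron and mitochondrial disease, was 1.27 ± 0.0711 in dopaminergic neurons and 2.35 ± 0.979 in whole midbrain, a difference of -0.80 in log2 (exact permutation adjusted p = 0.0278). Chchd10 itself was at 938 ± 64.1 FPKM in dopaminergic neurons and 156 ± 6.88 FPKM in whole midbrain, a log2 fold change of 2.58 that was above those of 99.3 percent of genes tested. Without whole midbrain library 2 the difference of Chchd2 to Chchd10 was -0.58.

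Htra2 and Htra1, a secreted relative, changed in opposite directions. Htra1 was at 0.487, 0.989, 0.696 and 1.44 FPKM in dopaminergic libraries and at 24.1, 33.8, 23.996, 24.6 and 21.9 FPKM in whole midbrain libraries, 28.4-fold lower on average. The myelin gene Mbp, at 47.2, 76.8, 60.3 and 92.3 FPKM in dopaminergic libraries 1 to 4, stood in the same order there as Htra1, and its part in the Htra1 values was not tested. The log2 ratio of Htra2 to Htra1 was higher by 4.65 in dopaminergic neurons (exact permutation adjusted p = 0.0278). The ratio of Fbxo7 to Psmf1, which encodes its partner PI31, was 0.612 ± 0.0700 in dopaminergic neurons and 2.1003 ± 0.622 in whole midbrain, a log2 difference of -1.60 (exact permutation adjusted p = 0.0278). Psmf1 rose, at 14.3 ± 1.02 FPKM in dopaminergic neurons against 8.29 ± 1.03 FPKM in whole midbrain. As TPM Psmf1 was not called (limma adjusted p = 0.671).

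The other 2 pairs given did not pass. Rhot1 and Rhot2, which encodes Miro2, stood at a ratio of 0.846 ± 0.146 in dopaminergic neurons and 0.841 ± 0.0554 in whole midbrain (log2 difference -0.01, range -0.12 to 0.06 when each library was left out; exact permutation adjusted p = 1.0). Pla2g6 and the related phospholipase gene Pnpla8 stood at 0.201 ± 0.0336 in dopaminergic neurons and 0.147 ± 0.0367 in whole midbrain (log2 difference 0.32, exact permutation adjusted p = 0.185). Exons of Rhot2 share 1307 bases with Gm20683 on the same strand, and those of Chchd10 share 155 bases with Mmp11 on the opposite strand.

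**Figure D3:**
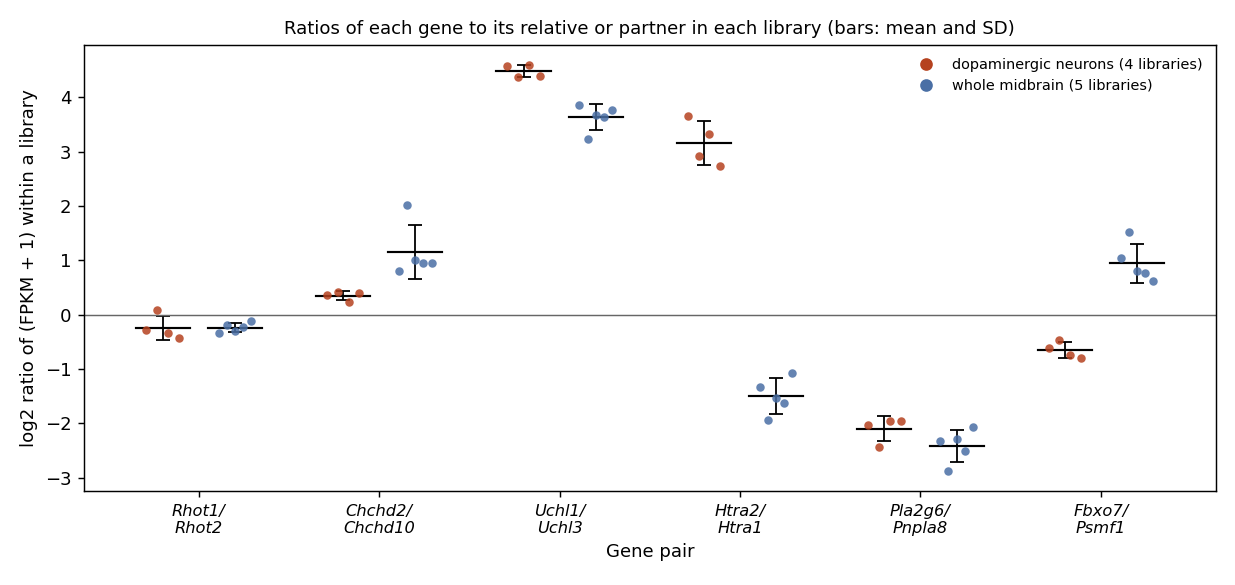
Log2 ratio of (FPKM + 1) of 6 gene pairs within each library, dopaminergic libraries left of whole midbrain libraries, with points for libraries, a line for the mean and bars for the SD. Groups do not overlap for Chchd2/Chchd10, Uchl1/Uchl3, Htra2/Htra1 and Fbxo7/Psmf1, while the Rhot1/Rhot2 ratios lie around -0.24 in both groups.

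The genes that work with these proteins were described in 11 lists, 157 tested genes in all, of which 95 were higher and 26 lower, with a median log2 fold change of 0.56. These shares, 60.5 and 16.6 percent, stand beside 38.3 and 36.0 percent of all genes. Calls depended on level: of the 8669 genes averaging at least 5 FPKM, 4177 were higher and 2493 lower, with a median of 0.26. The lists were not matched to all genes by level. Without whole midbrain library 2, no list's count of higher or lower genes moved by more than 2. The lists share some genes, and the splits given as TPM differ throughout, since that scaling lowers the median of all genes. As TPM 2067 of all 13106 genes tested were higher and 7686 lower. Under quantile normalization 4998 were higher and 4100 lower. The splits below on those scales are to be read beside these counts. A correction for exonic length also moved fold changes, for example that of Chchd2 from 1.78 to 1.56 and that of Rhot1 from 0.42 to 0.635. Splits of the lists after that correction are not given, so the part of gene length in them was not tested.

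Of 16 genes that import and process PINK1, 12 rose and none fell (median 0.90), against 7 and 3 as TPM. Subunits of the translocase of the outer membrane led them. Tomm6 was at 112 ± 3.43 FPKM in dopaminergic neurons and 26.1 ± 21.3 FPKM in whole midbrain, and Tomm40, the channel, at 53.9 ± 5.84 FPKM in dopaminergic neurons and 15.1 ± 2.67 FPKM in whole midbrain. Parl, the inner membrane protease that cleaves imported PINK1, rose by 0.86 on the log2 scale (limma adjusted p = 2.84e-05) and was not called as TPM (limma adjusted p = 0.128). Of 18 genes of ubiquitination at mitochondria and of related deubiquitinases, 13 rose and 2 fell (median 0.65), against 5 and 5 as TPM. Ube2v1, a cofactor for ubiquitin chain synthesis, was at 273 ± 13.6 FPKM in dopaminergic neurons and 84.3 ± 8.72 FPKM in whole midbrain. The mitofusin gene Mfn1, whose product fuses outer membranes, fell to 8.58 ± 0.438 FPKM in dopaminergic neurons, against 24.1 ± 2.32 FPKM in whole midbrain. Usp8, a deubiquitinase, fell by 0.29 on the log2 scale. The deubiquitinase genes Usp15 and Usp30 were not called (limma adjusted p = 0.223 and 0.0687). Mfn2, the other mitofusin, was chosen after its values were seen and was at 32.2 ± 1.94 FPKM in dopaminergic neurons and 21.5 FPKM on average in whole midbrain (log2 fold change 0.58, limma adjusted p = 0.00092).

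Of 14 mitophagy receptors and adaptors, 8 rose and 4 fell (median 0.56), against 4 and 6 as TPM. Fkbp8, a receptor anchored in the outer membrane, and Phb, a prohibitin of the inner membrane, rose by 1.46 and 1.45 on the log2 scale. The soluble adaptor Nbr1 and the kinase Tbk1, which acts on such adaptors, fell by 0.99 and 0.68. Tax1bp1 and Calcoco1 also fell (log2 fold change -0.40 and -0.52). The adaptors did not move alike, since Sqstm1 rose (log2 fold change 0.92, limma adjusted p = 0.000491). Optn was not called (-0.02, limma adjusted p = 0.89). Of 13 genes of fission and fusion, 7 rose and 2 fell (median 0.53), against 3 and 6 as TPM. Fis1, a fission factor, was at 251 ± 12.7 FPKM in dopaminergic neurons and 116 ± 36.0 FPKM in whole midbrain, and the genes that fell were Mfn1 and Oma1, a protease that cleaves the fusion protein OPA1 (2.22 ± 0.261 FPKM in dopaminergic neurons, 4.84 ± 0.728 FPKM in whole midbrain).

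Among 11 tested genes of mitochondrial transport, the setting in which Miro1 acts, 4 rose and 6 fell (median -0.24), against 2 and 7 as TPM. The dynein heavy chain gene Dync1h1 was at 9.89 ± 0.235 FPKM in dopaminergic neurons and 48.1 ± 2.92 FPKM in whole midbrain. Besides Dync1h1, those that fell were the kinesin heavy chain genes Kif5b (log2 fold change -1.16), Kif5a (-0.95) and Kif5c (-0.46), with Trak2 (-1.03) and Armcx3 (-0.24). Kinesin light chain genes Klc2 and Klc1 rose by 1.32 and 1.31 on the log2 scale, as did Trak1, an adaptor between Miro and motors, by 0.56, but Trak1 turned to -0.12 as TPM. Of 15 tested genes in a list of mitochondrial proteases and chaperones with relatives and partners of HTRA2, 4 rose and 7 fell (median -0.21), against 2 and 12 as TPM. Clpp, a protease of the matrix, was at 76.2 ± 4.03 FPKM in dopaminergic neurons and 21.2 ± 1.87 FPKM in whole midbrain, and the cochaperonin gene Hspe1 rose by 1.61. The list also holds relatives and partners of HTRA2 outside mitochondria, of which 2 were among the 7 that fell: the secreted protease gene Htra1, with the largest fall, and Xiap, a cytosolic inhibitor of cell death that HTRA2 binds (log2 fold change -0.27, limma adjusted p = 0.0319). The rest of those that fell were mitochondrial: Spg7 (-0.86), Oma1 (-0.86), Hspa9 (-0.62), Lonp1 (-0.37) and Trap1 (-0.21).

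Of 16 genes for proteins with the CHCH fold and for MICOS, the family and partners of CHCHD2, 15 rose and none fell (median 1.21), against 9 and 1 as TPM. The remaining gene was Immt, the core subunit of MICOS, with a log2 fold change of 0.08 (limma adjusted p = 0.501). After Chchd10 the largest change was that of Chchd1, a protein of the mitochondrial ribosome, at 122 ± 5.87 FPKM in dopaminergic neurons and 28.2 ± 12.4 FPKM in whole midbrain. Of 20 genes of DJ-1-related glyoxalase and oxidant defence, 14 rose and 1 fell (median 0.70), against 9 and 6 as TPM. The thioredoxin gene Txn1 rose by 1.70 on the log2 scale, and Nfe2l2, which encodes the oxidant-responsive factor NRF2, was at 2.99 ± 0.481 FPKM in dopaminergic neurons and 13.9 ± 1.64 FPKM in whole midbrain.

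Of 11 genes of ubiquitin, its activating enzymes and its hydrolases, 6 rose and 1 fell (median 0.81), against 4 and 5 as TPM and 3 and 3 under quantile normalization. Nedd8, a ubiquitin-like modifier, was at 870 ± 57.4 FPKM in dopaminergic neurons and 221 ± 65.8 FPKM in whole midbrain. Rps27a, which encodes ubiquitin fused to a ribosomal protein, was at 686 ± 60.7 FPKM in dopaminergic neurons and 290 ± 225 FPKM in whole midbrain (log2 fold change 1.47, limma adjusted p = 0.00413), and the groups overlapped. It has near-identical copies among which reads may be split. Its log2 fold change was 1.85 without whole midbrain library 2 and 0.42, not called, under quantile normalization (limma adjusted p = 0.170). Uchl4, a close relative of Uchl3, fell by 0.74 on the log2 scale, and under quantile normalization it was at -0.100 and not called (limma adjusted p = 0.486). Of 16 tested SCF components and FBXO7 partners, 10 rose and 1 fell (median 0.47), against 2 and 8 as TPM and 5 and 3 under quantile normalization. Rbx1, the RING subunit, rose by 1.22, and Fbxo44, an F-box gene of the brain, by 1.17, while Cand1, which exchanges F-box adaptors, fell by 0.68. Of 12 tested phospholipases and acyltransferases related to PLA2G6, 4 rose and 4 fell (median -0.29), against 0 and 9 as TPM. Those that fell were Pla2g16, at 2.98 ± 0.686 FPKM in dopaminergic neurons and 22.2 ± 1.22 FPKM in whole midbrain, and Pnpla3, at 0.227 ± 0.108 FPKM in dopaminergic neurons and 2.46 ± 0.416 FPKM in whole midbrain, Pla2g4a, at 0.123 ± 0.0762 FPKM in dopaminergic neurons and 2.08 ± 0.276 FPKM in whole midbrain, and Pnpla6. Their order depended on the pseudocount: log2 fold changes of Pla2g16, Pnpla3 and Pla2g4a were -2.56, -1.49 and -1.45 with 1 FPKM added, and -2.89, -3.01 and -3.35 with 0.1. Pnpla6 was at -0.70, and at -0.36 with no call after the length correction (limma adjusted p = 0.0684). Those that rose were Pla2g12a, at 18.7 ± 0.982 FPKM in dopaminergic neurons and 10.9 ± 2.27 FPKM in whole midbrain (log2 fold change 0.75), Lpcat1 (0.41), Pnpla2 (0.37) and Pnpla8 (0.24). As TPM none of the 4 was called higher.

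**Figure D4:**
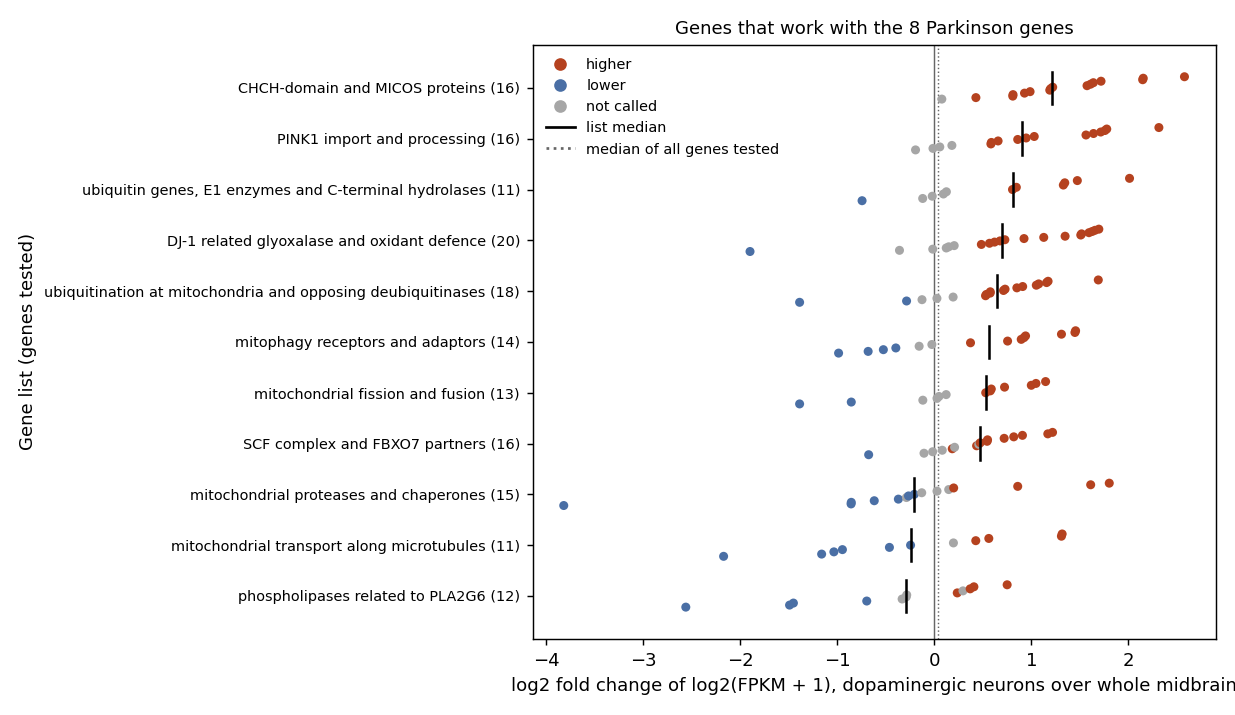
Log2 fold changes (dopaminergic neurons over whole midbrain) of the tested genes in 11 lists, with red points for genes called higher, blue for lower and grey for not called, black bars for list medians and a dotted line for the median of all genes tested (0.04). Genes of the CHCH fold lie furthest right, with a median of 1.21, and Htra1 lies furthest left, at -3.82.

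Among tested genes within 10 kb of a member, Aup1 and Zbed5 rose and Syn3, Phkg1, Rnf135 and Ddost fell. Beside Pink1, Ddost, a subunit of the oligosaccharyltransferase, was at 11.2 ± 2.098 FPKM in dopaminergic neurons and 16.0 ± 3.70 FPKM in whole midbrain (log2 fold change -0.47, limma adjusted p = 0.0203), a call that ended without dopaminergic library 1 or 2 (limma adjusted p = 0.0592 and 0.0630) and with the replicate number as a block (limma adjusted p = 0.0519). Beside Fbxo7, the synapsin gene Syn3 was at 5.93 ± 0.450 FPKM in dopaminergic neurons and 14.6 ± 1.25 FPKM in whole midbrain. Beside Chchd2, Phkg1, a subunit of phosphorylase kinase, was lower, at 0.627 ± 0.313 FPKM in dopaminergic neurons against 6.80 ± 1.97 FPKM in whole midbrain, and Zbed5 was higher, at 108 ± 5.60 FPKM in dopaminergic neurons against 27.2 ± 5.33 FPKM in whole midbrain. Beside Rhot1, Rnf135, a ubiquitin ligase gene, had a log2 fold change of -0.51 (limma adjusted p = 0.00419), which became 0.077 under quantile normalization. No tested gene lay within 10 kb of Park7, Uchl1 or Pla2g6. Baiap2l2, Dqx1, Mir7019 and Mir7040 were below the minimum for testing.

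The genes with the most similar profiles were those with the smallest root mean square difference from a member in log2(FPKM + 1) over the 9 libraries. For Rhot1 these were Cldn12 and Gpd1l, at 0.0866 and 0.105, the closest matches of any member. For Chchd2 they were Cox6b1, a subunit of cytochrome c oxidase, at 0.133 and the ribosomal protein gene Rps28 at 0.147. Uchl1 was nearest to Atp5g1, a subunit of ATP synthase, at 0.171 and to Rpl36 at 0.234. Park7 was nearest to Vti1b (0.128) and Mgst3 (0.149), Pink1 to Pgrmc1 (0.191) and Tmem66 (0.198), and Htra2 to Sbf1 (0.130) and Pcdhac2 (0.149). Fbxo7 was nearest to Phf3 (0.121) and Ubp1 (0.157), and Pla2g6 to Mad2l1 (0.154) and Rab43 (0.172).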

How the data were processed

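The 9 libraries were sequenced from single ends after amplification of nanogram amounts of RNA, per the labels' protocols. The authors deposited 1 table of FPKM, made with TopHat2 2.0.8 and Cufflinks 2.1.1 on mm10, per the submitters' processing notes; the sources used here name no annotation, options or strand setting. Values of dopaminergic libraries have at most 6 significant digits, whereas 97.7 to 99.3 percent of those above 0 in whole midbrain libraries have more, so the form of the values and the group cannot be told apart.

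The deposited FPKM were put on the scale log2(FPKM + 1). The 13106 genes averaging 1 FPKM or more over the 9 libraries entered a two-sided limma fit (version 3.58.1, R 4.3.3) with a trend of variance on level. It had 7 residual degrees of freedom plus about 3 from the prior, and p-values were adjusted by Benjamini-Hochberg over all genes, at 0.05. Pair ratios used SciPy 1.17.1 with Python 3.11.15. Figures used matplotlib 3.10.9, with NumPy 2.4.6 and pandas 2.3.3. Both tests were tested on simulated data. Exonic lengths and overlaps of at least 100 bases came from GENCODE M21 on GRCm38, matched by symbol and position for 23412 of 24487 rows. Depth used single-exon receptor genes and an assumed fragment of 200 bases. TPM left out small RNA and mitochondrial genes. Spans are counted from 1.

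Named genes were the members, both genes of each pair, Th, in each list the 2 called genes with the largest change and up to 2 that went against most calls (all called genes for the phospholipases, where the calls were tied), genes within 10 kb, and the 2 nearest profiles of each member. The marker exceptions, Mfn2, Immt, Xiap and the comparison of Mbp with Htra1 were picked once their values had been seen. So were the other genes that fell in the lists of transport and of proteases and chaperones. The same holds for Usp15, Usp30, Sqstm1, Optn, Tax1bp1 and Calcoco1. Results for 1 gene of the set, its pair and a few related genes are not reported here. The members and lists were chosen with earlier results of these data known. The alternatives were 2 pseudocounts (0.1 and 5), 3 filters, 4 scalings, no trend, library weights, a replicate block, a loess length correction (span 0.5) and leaving out each library.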

Additional observations from a re-analysis of the deposited data

Results flagged for a closer look

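Within each group, the highest or lowest library was set against the rest by Dixon's criterion at 95 percent for the 8 genes and 6 log2 ratios. Of 28 sets of values 6 had a library apart, where chance gives about 1 in 20. Whole midbrain library 2 was apart for 4 genes, at 113.7 FPKM for Pink1, 136.7 for Park7, 401.1 for Uchl1 and 641.5 for Chchd2, which is 1.94, 1.99, 1.49 and 2.16 times the mean of the other 4 whole midbrain libraries. In its group, library 2 also had the lowest astrocyte marker sum and the highest marker sum of every other cell type except dopaminergic neurons. Its total over all genes was 409130 FPKM, against 309275 to 313252 in the other whole midbrain libraries. For Rhot1 and Htra2 library 2 was at 1.07 and 0.957 times the mean of the other 4 whole midbrain libraries. The log2 ratio of Chchd2 to Chchd10 in whole midbrain library 2 was 2.025. The log2 ratio of Pla2g6 to Pnpla8 in dopaminergic library 2 was -2.438, below the other 3.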

How the results depend on the processing

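The calls of Park7, Fbxo7, Uchl1 and Chchd2 held under every alternative in which they were tested; Pla2g6 was not tested with a minimum mean of 5 FPKM, which left 2493 genes lower overall. As TPM 3 members were higher and 2 lower, and 2067 genes were higher and 7686 lower, against 5014 and 4717. As TPM Pla2g6 was at 0.015, Htra2 at 0.20, Rhot1 at -0.25 and Pink1 at -0.53, and the signs of Rhot2 (-0.25), Pnpla8 (-0.44), Trak1 (-0.12), Aup1 (-0.11), Lpcat1 (-0.23) and Pnpla2 (-0.27) turned. Under quantile normalization 2 members were lower, Pink1 was at -0.41 and Rnf135 at 0.077. Library weights gave 0.36 for Pink1. The causes were not tested. Pnpla8 (limma adjusted p = 0.0404) kept its call in 11 of 22 alternatives. Of the counts over the lists, 38 moved by over 1.5 times and 446 did not.

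When each library was left out, log2 fold changes ran from 2.14 to 2.31 for Uchl1, 1.71 to 1.999 for Chchd2, 1.44 to 1.71 for Park7, 0.78 to 0.89 for Htra2, 0.50 to 0.62 for Pla2g6, 0.36 to 0.45 for Rhot1, 0.10 to 0.36 for Pink1 and -0.98 to -0.80 for Fbxo7. Members called higher numbered 6 or 7. With 8 libraries the exact test has too few arrangements for most adjusted p to pass, so only differences of log2 ratios are given: 0.75 to 0.90 for Uchl1 to Uchl3, -0.89 to -0.58 for Chchd2 to Chchd10, 4.49 to 4.79 for Htra2 to Htra1, -1.68 to -1.46 for Fbxo7 to Psmf1 and 0.20 to 0.43 for Pla2g6 to Pnpla8.

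Both groups number their libraries, and no sign of pairing by number was seen. Deviations of same-numbered libraries correlated at -0.0498 to 0.0190 across genes, and no dopaminergic library correlated best with its own number. Because the groups may have been prepared by different methods, these values cannot tell whether same-numbered libraries came from the same animals. With the replicate number as a block, 4593 genes were higher and 4294 lower, and every member kept its call, while Ddost and Pnpla8 lost theirs. The paired differences of log2 ratios were 0.88 for Uchl1 to Uchl3, -0.85 for Chchd2 to Chchd10, 4.76 for Htra2 to Htra1 and -1.68 for Fbxo7 to Psmf1, with an exact permutation adjusted p of 0.146, since 4 pairs cannot pass.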
